A study of Homo sapiens with 6 samples.

Results

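The genes that make fatty acids, pack them into triglyceride and hold them in lipid droplets were followed in Huh7 cells that overexpressed hsa_circ_0098181. The set held 38 genes picked by symbol for these roles, and all 38 were found among the 50868 genes of the deposited table. After the filter on low counts, 35 of them were tested together with 15055 genes in all. The other 3, LIPE, THRSP and G0S2, had too few reads.

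In hepatocytes, citrate is turned into acetyl-CoA by ACLY, acetyl-CoA into malonyl-CoA by ACACA and ACACB, and malonyl-CoA into palmitate by FASN. Desaturases and elongases then shape the chain, and the GPAM, AGPAT and DGAT enzymes attach acyl chains to a glycerol backbone, with phosphate removed by the LPIN enzymes on the way to triglyceride. Triglyceride is kept in droplets coated by perilipins, is taken apart by lipases such as PNPLA2, or is loaded onto apolipoprotein B by MTTP and secreted, while SREBF1 and MLXIPL drive transcription of many of these genes.

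Huh7 cells are a long-established line from a human hepatoma, and no normal hepatocytes were part of the comparison. hsa_circ_0098181 is a circular RNA made from exons of the gene SOX5, and the study asked whether it binds the microRNA miR-18a-3p and so raises PPARA, a nuclear receptor of lipid metabolism. 3 libraries came from cells given the overexpression plasmid (circ_0098181 group) and 3 from cells given the control plasmid (control group), both by lipofection, and total RNA was taken 48 h later in both groups. The labels give no separate cultures, so p-values measure the spread between these libraries only, which may be technical.

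Total gene counts ran from 11130902 to 14138262 per library. SOX5, to which reads of the circle can be counted, had a log2 fold change of 5.88 (circ_0098181 over control), in the direction of the labels. All 12 hepatocyte and hepatoma markers had reads, summing to 33756 to 36345 CPM (read counts scaled by library size) in the circ_0098181 group and 32472 to 38241 CPM in the control group. The 6 fibroblast markers summed to between 22.8 and 26.1 CPM over all 6 libraries, and the 4 endothelial markers to 54.4 to 55.6 and 46.9 to 59.2 CPM. Nearly all of the endothelial sum was PECAM1, with 4081 counts, while VWF and KDR had 1 count each and CDH5 0 over all libraries. The 4 leukocyte markers summed to 491 to 532 CPM against 438 to 474 CPM, nearly all of it LYZ, with 3 counts of CD3E in all. The 6 adipocyte markers, which matter most for droplet genes, summed to 3.96 to 5.17 CPM against 2.39 to 4.17 CPM, with LEP at 0 and ADIPOQ at 1 count over the 6 libraries. Most of that sum was CFD, with 215 counts and a log2 fold change of 0.60 (unadjusted p = 0.066, adjusted p = 0.797, edgeR), and PLIN1 had 63 counts. In bulk RNA, a change in the number of cells of one kind and a change in RNA per cell cannot be told apart.

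No lipogenic or droplet gene passed the test. 0 of 35 had an adjusted p under 0.05 in the quasi-likelihood test of edgeR (Benjamini-Hochberg adjustment over all genes), where 0.0399% of all tested genes did, and the lowest adjusted p among the 35 was 0.797. DESeq2 called 0 of them as well. Limma on FPKM values called 0 of the 32 it covered, which left out LPIN3, PLIN5 and TM6SF2. At an unadjusted p under 0.05, 2 were higher with the circle (DGAT1 and PLIN5) and 0 were lower, against 2.42% and 3.08% of all tested genes. For 2 genes (DGAT1 and PLIN5) all 3 circ_0098181 values lay above all 3 control values, as for 6.4% of all tested genes. For 2 others (ELOVL5 and LPIN2) all 3 lay below, as for 6.5% of all tested genes. Each of these 2 counts is 5.71% of the 35 genes, close to the share over the whole table, and the genes at an unadjusted p under 0.05 are 5.71% higher and 0% lower.

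The differences were small and fell on both sides of 0. The log2 fold change was above 0 for 17 of the 35 genes and below 0 for 18, against 50.5% above 0 over all tested genes. Its median was -0.00019, against 0.0023 over all tested genes, and the interquartile range of the set was -0.083 to 0.093 against -0.13 to 0.14 for all. The median standard error was 0.107 in the set and 0.156 over all tested genes, so the ranges differ in precision and the narrower one does not show greater stability. The precision behind these values is given by their 95% intervals. The interval lay within a 1.25-fold change in either direction for 15 of the 35 genes, within 1.5-fold for 29 and within 2-fold for 34. The 6 genes whose interval reached past 1.5-fold were MLXIPL, DGAT1, ABHD5, PLIN5, CIDEC and TM6SF2, and PLIN5 alone reached past 2-fold.

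**Figure D1:**
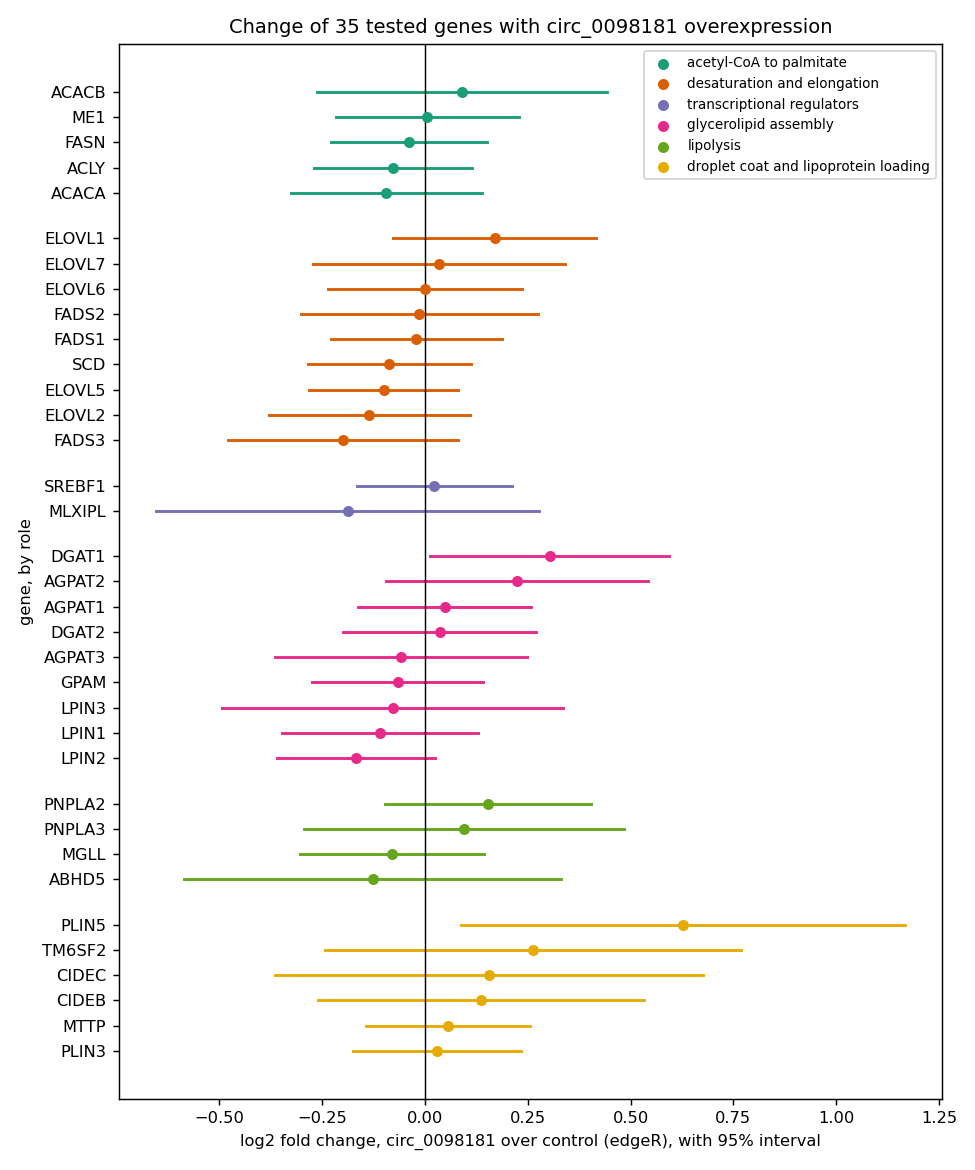
Each point is the log2 fold change of 1 of the 35 tested genes, circ_0098181 over control, from edgeR's quasi-likelihood fit of 3 against 3 libraries, with its 95% interval as a line. Genes are grouped by role. Only the intervals of DGAT1 and PLIN5 leave out 0, and neither gene passed the adjusted threshold.

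Levels between genes were compared as CPM per kilobase (kb) of merged exon, averaged over the 6 libraries. Merged exons join all annotated transcripts of a gene. Their length was 11026 bases for FADS2, whose longest transcript had 5073, but 5362 bases for SCD by either measure. The order and the ratios below therefore depend on this choice of length, and other lengths were not tried for them. The set covered a 1010-fold range, and 27 of the 35 genes lay above 4.76 CPM per kb, the median of all tested genes. SCD, the stearoyl-CoA desaturase that makes oleate, stood first at 697.6 ± 39.8 CPM per kb (SD, n = 6), 5.45 times the next gene, and held 39.3% to 42.2% of all reads of the set in each library. FASN followed at 127.9 ± 5.48 CPM per kb. Behind it came ME1, a source of NADPH, at 101.9 ± 7.19, FADS2 at 90.58 ± 10.0 and ACLY at 83.84 ± 4.45 CPM per kb, and the values of ME1 and FADS2 overlapped, as did those of FADS2 and ACLY. At the lower end stood LPIN3, TM6SF2 and AGPAT3, with PLIN5 lowest of all. Of the 34 pairs of neighbours in this order, 25 overlapped over the 6 libraries.

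**Figure D2:**
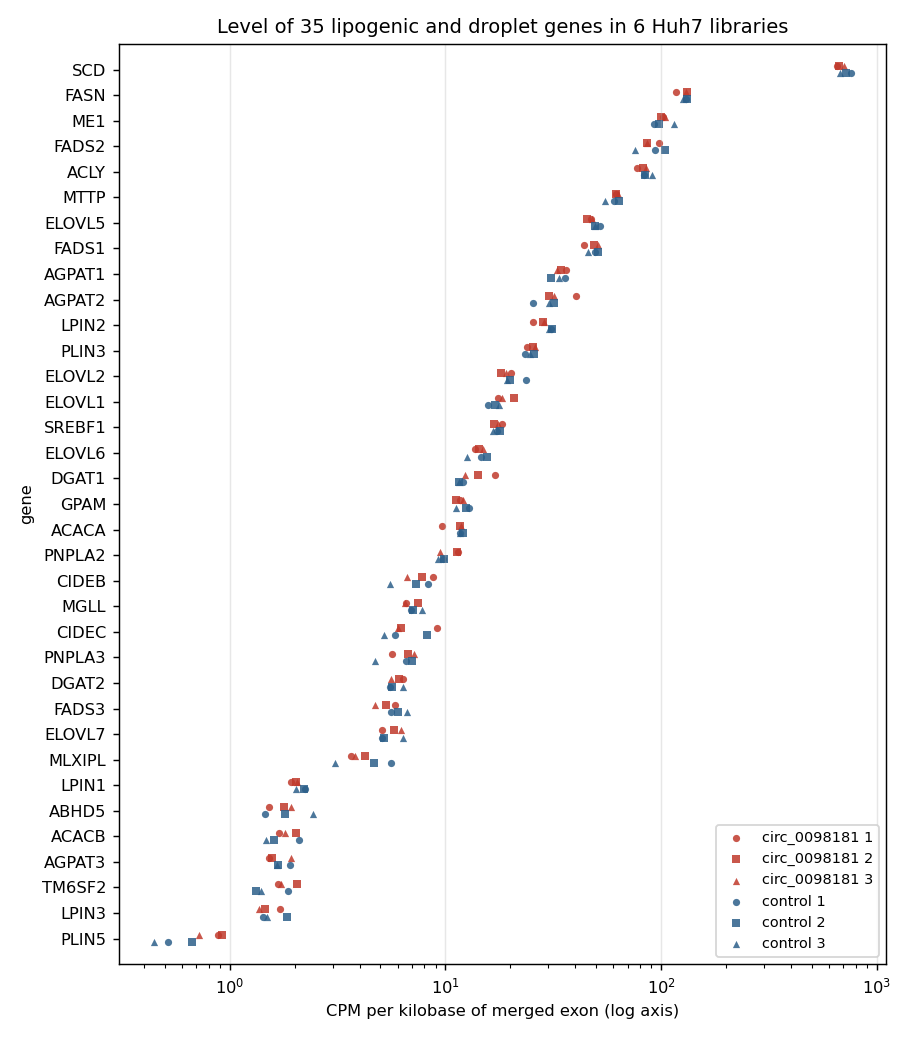
Level of each of the 35 tested genes as CPM per kilobase of merged exon (log axis), 1 point per library, red for circ_0098181 and blue for control. Genes are ordered by mean level, from SCD at the top to PLIN5 at the bottom, and the red and blue points of most genes lie among each other.

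Within most of the gene families compared, the same member led in every library by CPM per kb of merged exon. ACACA, the cytosolic acetyl-CoA carboxylase, stood 5.56 to 7.92 times above ACACB, the mitochondrial form, in CPM per kb over the 6 libraries. LPIN2 stood 13.3 to 14.9 times above LPIN1 and 14.9 to 21.5 times above LPIN3, its fellow phosphatidate phosphatases. The merged length of LPIN1 was 11861 bases with a longest transcript of 5690, against 6800 and 6229 for LPIN2, so their ratio depends on the length used. PLIN3, a perilipin found in many tissues, stood 27.1 to 55.4 times above PLIN5, the perilipin of tissues that burn fat. This covers only the perilipins of the set. PLIN2, outside it, had a mean of 233 CPM against 70.0 CPM for PLIN3, not divided by length. DGAT1 stood 1.81 to 2.67 times above DGAT2, the other enzyme of the last acylation step. The exceptions were the AGPAT pair, where the ratio of AGPAT1 to AGPAT2 ran from 0.90 to 1.41, and the CIDE pair, where that of CIDEB to CIDEC ran from 0.887 to 1.43. Merged length and longest transcript were 3631 and 2496 bases for AGPAT1 and 1798 and 1512 bases for AGPAT2. The AGPAT exception may therefore not hold by another length.

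LIPE, which encodes hormone-sensitive lipase, had 0 counts in all 6 libraries. That allows a level of up to 0.212 to 0.277 CPM per library, taking 3 counts as the limit. THRSP, a lipogenic regulator, had 1 count in circ_0098181 replicate 1 and none elsewhere. G0S2, an inhibitor of PNPLA2, had 1 count in circ_0098181 replicate 2, 1 in control replicate 2 and 2 in control replicate 3. These limits cover counting error only.

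None of the 5 genes from citrate to palmitate passed the test, and their groups overlapped. ACLY (ENSG00000131473, chr17:41866908-41930542) was at 402, 431 and 444 CPM with the circle and at 434, 439 and 474 CPM without it. ACACA (ENSG00000278540, chr17:37084988-37406818), the committed step, was at 125, 153 and 154 CPM against 152, 157 and 151 CPM. FASN (ENSG00000169710, chr17:82078333-82098332) was at 1099, 1231 and 1217 CPM against 1226, 1229 and 1186 CPM. In all 3 genes circ_0098181 replicate 1 was the lowest library, and the groups overlapped. The log2 fold changes were -0.078 (95% interval -0.27 to 0.11) for ACLY, -0.094 (-0.33 to 0.14) for ACACA and -0.038 (-0.23 to 0.15) for FASN. ACACB and ME1, the remaining genes of this group, had log2 fold changes of 0.090 and 0.0063. Adjusted p values of the 5 genes ran from 0.853 to 0.992 (edgeR). Coordinates here and below are those of the deposited table, which match GRCh38.

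Of the 9 desaturases and elongases, 7 had a log2 fold change below 0, with a median of -0.021, and none passed the test. SCD (ENSG00000099194, chr10:100347124-100364834) was at 3514, 3591 and 3781 CPM with the circle and at 4093, 3852 and 3613 CPM without it. Its groups overlapped through control replicate 3, and its log2 fold change was -0.087 (95% interval -0.28 to 0.11, adjusted p = 0.843, edgeR). ELOVL5 (ENSG00000012660, chr6:53267398-53349179), which elongates polyunsaturated chains, was at 181, 173 and 183 CPM against 199, 187 and 188 CPM. Its groups did not overlap, although the gap between the nearest libraries was smaller than the SD within either group. The means were 179 ± 5.10 and 192 ± 6.54 CPM (SD, n = 3). A log2 fold change of -0.10 had a standard error of 0.079 and an adjusted p of 0.810 (edgeR). The exact two-sided permutation test gave 0.1, the smallest p that 3 against 3 libraries allow. The other 7 ranged in log2 fold change from -0.20 for FADS3 to 0.17 for ELOVL1. FADS1 and FADS2, the front-end desaturases of polyunsaturated fatty acids, stood at -0.021 and -0.013, and ELOVL6, which extends palmitate, at -0.00019.

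SREBF1 (ENSG00000072310, chr17:17810399-17837002), the main insulin-responsive activator of lipogenic genes, was at 147, 135 and 141 CPM with the circle and at 139, 144 and 134 CPM without it. The libraries of both groups were mixed in rank. Its log2 fold change was 0.023 (95% interval -0.17 to 0.21, adjusted p = 0.961, edgeR). MLXIPL, the glucose-responsive activator also called ChREBP, had 18.8 ± 1.46 CPM against 21.4 ± 6.09 CPM (SD, n = 3), with a log2 fold change of -0.19. The control libraries of MLXIPL ran from 14.9 to 26.9 CPM and enclosed all 3 circ_0098181 values.

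In glycerolipid assembly the log2 fold changes ran from -0.17 for LPIN2 to 0.30 for DGAT1. DGAT1 (ENSG00000185000, chr8:144314584-144326910), which joins the last acyl chain to diacylglycerol, was at 69.9, 58.4 and 50.7 CPM with the circle and at 50.1, 47.5 and 47.6 CPM without it. All 3 circ_0098181 libraries were above the controls, but replicate 3 only by a margin smaller than the SD of the controls. The means were 59.7 ± 9.70 and 48.4 ± 1.48 CPM (SD, n = 3). On the log2 scale the fold change was 0.30 (95% interval 0.012 to 0.59), with an unadjusted p of 0.0431 and an adjusted p of 0.797 (edgeR), and the exact permutation p was 0.1. Without circ_0098181 replicate 1 the log2 fold change was 0.17. DGAT2 (ENSG00000062282, chr11:75759512-75801535), the enzyme of the same step that is not related to DGAT1 in sequence, was at 50.2, 48.0 and 44.4 CPM against 43.9, 44.9 and 50.3 CPM. Its groups overlapped, with a log2 fold change of 0.036 (95% interval -0.20 to 0.27). The ratio of DGAT1 to DGAT2 was 2.67, 2.33 and 2.19 in the circ_0098181 libraries and 2.18, 2.03 and 1.81 in the controls, so the ratios did not overlap, by a margin of the last digit.

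LPIN2 (ENSG00000101577, chr18:2916994-3013315), which makes diacylglycerol from phosphatidate, was at 173, 192 and 194 CPM with the circle and at 210, 213 and 205 CPM without it. All 3 circ_0098181 libraries were below the controls, and replicate 1 was the lowest. The means were 186 ± 11.7 and 209 ± 4.40 CPM (SD, n = 3), with a log2 fold change of -0.17 (95% interval -0.36 to 0.024), an unadjusted p of 0.0785 and an adjusted p of 0.797 (edgeR). The exact permutation p was 0.1. LPIN1 and LPIN3 stood at -0.11 and -0.079, so all 3 lipins were below 0 without any passing the test. GPAM, the mitochondrial enzyme of the first acylation, stood at -0.066. The next step is taken by the AGPAT enzymes, whose log2 fold changes were 0.048 for AGPAT1, 0.22 for AGPAT2 and -0.058 for AGPAT3. AGPAT2 was higher in circ_0098181 replicate 1, at 72.3 CPM, than in the other 5 libraries, which ran from 45.7 to 57.3 CPM.

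**Figure D3:**
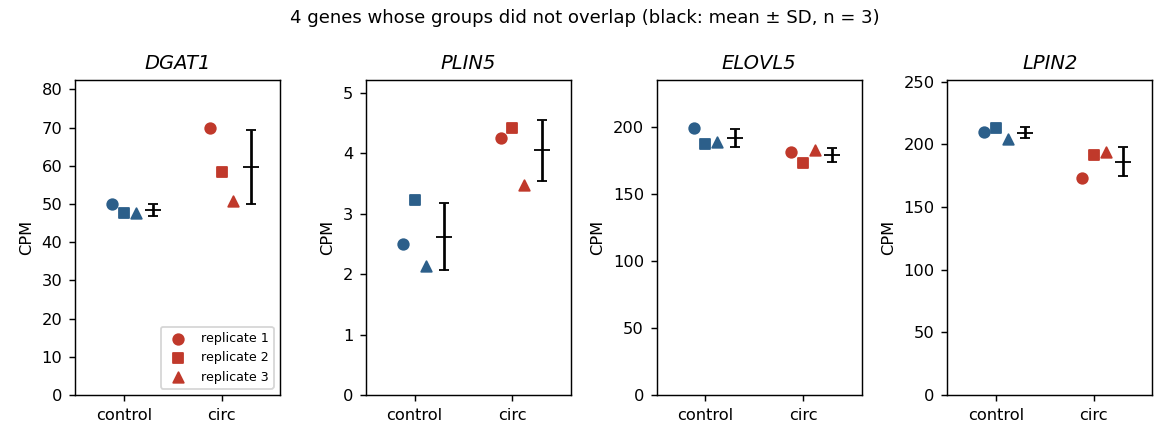
Levels in CPM of the 4 genes whose groups did not overlap, with 1 point per library (marker shape gives the replicate number, which does not pair the groups) and the mean ± SD (n = 3) in black. DGAT1 and PLIN5 were higher and ELOVL5 and LPIN2 lower in all 3 circ_0098181 libraries, and none passed the adjusted threshold.

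Among the lipolysis genes, 4 of 6 had enough reads, 2 with a log2 fold change above 0 and 2 below. PNPLA2 (ENSG00000177666, chr11:818902-825573), the lipase of the first triglyceride cut, was at 43.8, 43.5 and 36.3 CPM with the circle and at 37.7, 37.9 and 35.5 CPM without it. PNPLA3 (ENSG00000100344, chr22:43923739-43964488), a droplet protein known for a variant tied to fatty liver, was at 18.3, 21.7 and 23.2 CPM against 21.2, 22.7 and 15.3 CPM. Both genes had overlapping groups, and their log2 fold changes were 0.15 (95% interval -0.098 to 0.40) and 0.095 (-0.29 to 0.48). MGLL, which splits monoglyceride, and ABHD5, the coactivator of PNPLA2, stood at -0.080 and -0.13.

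The droplet coat and lipoprotein group was the one role whose tested genes all had a log2 fold change above 0, 6 of 6 with a median of 0.15. None passed the test, and the common sign was lost when single libraries were left out. The perilipins PLIN2 and PLIN4, outside the set, stood at -0.043 and 0.29, so the common sign belongs to the 6 genes chosen. PLIN5 (ENSG00000214456, chr19:4522531-4535224), which coats droplets and ties them to mitochondria, was at 4.25, 4.42 and 3.47 CPM with the circle and at 2.49, 3.24 and 2.14 CPM without it. The lowest circ_0098181 library was above the highest control by less than the SD of either group. The means were 4.05 ± 0.505 and 2.62 ± 0.560 CPM (SD, n = 3), with a log2 fold change of 0.63 (95% interval 0.088 to 1.17), an unadjusted p of 0.0277 and an adjusted p of 0.797 (edgeR). The exact permutation p was 0.1. PLIN5 was also the least abundant tested gene of the set, with 256 counts over the 6 libraries.

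MTTP (ENSG00000138823, chr4:99563761-99623999), which loads lipid onto apolipoprotein B, was at 333, 332 and 342 CPM with the circle and at 327, 346 and 296 CPM without it. Control replicate 2 was the highest library and the groups overlapped, with a log2 fold change of 0.057 (95% interval -0.14 to 0.26). The remaining 4 genes had log2 fold changes of 0.030 for PLIN3, 0.14 for CIDEB, 0.16 for CIDEC and 0.26 for TM6SF2, and the groups of each overlapped. Control replicate 3 had the lowest value of PLIN5, CIDEB, CIDEC and MTTP, and the median deviation of the 6 genes from their mean over the libraries was -0.28 (log2) there against -0.048 to 0.14 in the other 5 libraries. Without control replicate 3, 4 of the 6 were above 0, with log2 fold changes of -0.013 for CIDEB, -0.0017 for MTTP and 0.022 for CIDEC. The count was 5 of 6 without circ_0098181 replicate 1 (CIDEC at -0.064), without control replicate 1 (PLIN3 at -0.0040) and with a correction for transcript length and GC content (PLIN3 at -0.033).

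**Figure D4:**
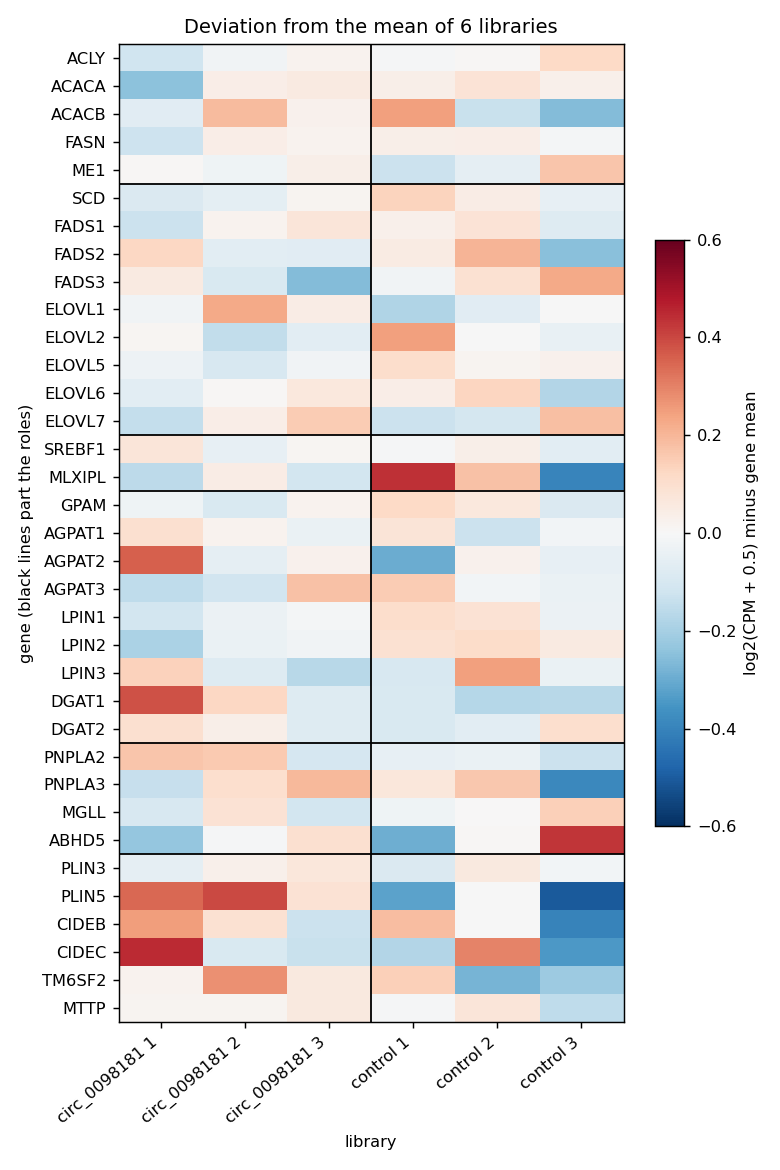
Each cell is log2(CPM + 0.5) of 1 gene in 1 library minus the mean of that gene over the 6 libraries, red for above and blue for below, with black lines between the roles and between the groups. Within each role, red and blue cells occur in the libraries of both groups, and among the strongest cells are CIDEC in circ_0098181 replicate 1 at 0.45 and PLIN5 in control replicate 3 at -0.50.

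A trend with transcript length moved with part of these values. Over the 35 genes, the deviation of circ_0098181 replicate 1 had a Pearson correlation of -0.59 with log2 transcript length and of 0.48 with GC content. The correlation with length was -0.26 and 0.069 in circ_0098181 replicates 2 and 3, and 0.33, 0.080 and 0.34 in control replicates 1 to 3. Over all tested genes with a length it was -0.27 in circ_0098181 replicate 1 and 0.23 in control replicate 1. In circ_0098181 replicates 2 and 3 it was -0.028 and -0.018 over all these genes, and in control replicates 2 and 3 -0.0062 and 0.046. With GC content, the correlation over the 35 genes was 0.36 and -0.33 in circ_0098181 replicates 2 and 3. In control replicates 1 to 3 it was -0.043, 0.015 and -0.45. Over all tested genes with a length, the correlation with GC content was 0.10, 0.12 and -0.0090 in circ_0098181 replicates 1 to 3. It was -0.20, 0.021 and 0.010 in control replicates 1 to 3, so the values of the 35 genes are not those of the whole libraries. These correlations are across genes, which are not independent replicates. Each library's trend with length and GC content, fitted over all tested genes with a length and not over the 35, was then taken out. With it removed, the log2 fold change was 0.24 for DGAT1, 0.54 for PLIN5, -0.097 for ELOVL5, -0.10 for LPIN2 and 0.066 for AGPAT2. Again 0 of the 35 passed the test.

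**Figure D5:**
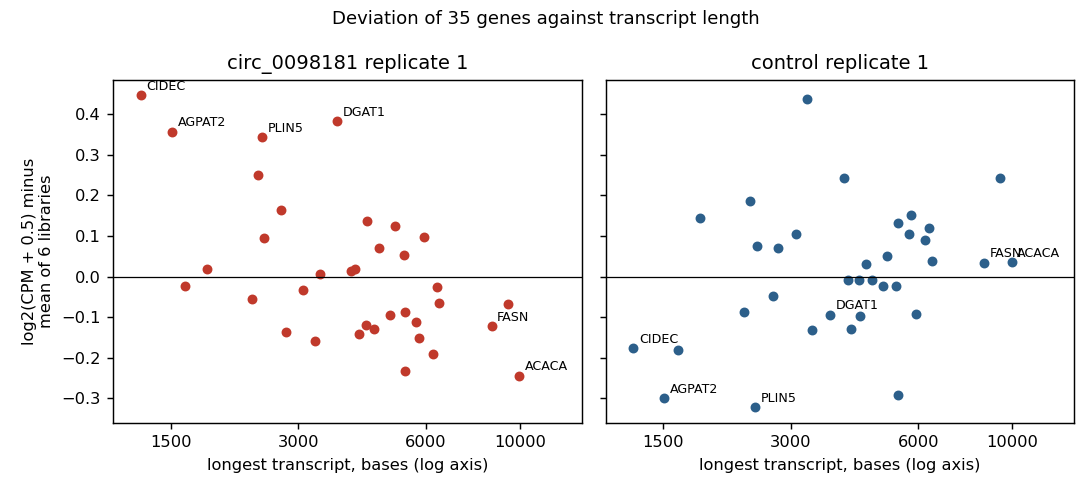
Deviation of the 35 genes from their mean over the 6 libraries (log2 scale) against the length of the longest transcript in bases (log axis), in circ_0098181 replicate 1 on the left and control replicate 1 on the right. Short transcripts such as CIDEC and AGPAT2 lie above 0 and ACACA, the longest, below 0 on the left (r = -0.59), and the slope is the opposite on the right (r = 0.33).

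Some counts are uncertain because genes share exons or sequence, and strand handling is not given in the sources used here. 8 of the 38 genes shared more than 10% of their exon length with another gene. CIDEB (1785 counts) shared 61.1% with NOP9 (6915 counts) and 39.9% with LTB4R2 (220 counts), both on the opposite strand. TM6SF2 (277 counts) shared 46.7% with AC138430.1 (165 counts), and AGPAT1 (9287 counts) 29.9% with PPT2-EGFL8 (450 counts). PLIN5 (256 counts) shared 21.7% with AC011498.4, which held 66 counts, and DGAT1 (4113 counts) 10.7% with AC233992.1, which held 5 counts. CIDEC had 990 counts over the 6 libraries and its pseudogene CIDECP 1189, so reads could be split between them. SCD had 280252 counts against 113 for its pseudogene SCDP1.

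The microRNA that the study places downstream of the circle gives a feature of the genes that did not enter their choice. The mature sequence of miR-18a-3p is shown because its seed, bases 2 to 8, sets which 3′ UTRs hold a match (RefSeq, GRCh38.p14, chr13:91350797-91350819, plus strand, seed in capitals).
hsa-miR-18a-3p: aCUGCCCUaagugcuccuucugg

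A 7-base match to this seed, AGGGCAG, was found in the 3′ UTR (GENCODE 29, GRCh38) of 9 of the 35 tested genes, or 25.7%, against 16.4% of 12363 tested genes with a 3′ UTR. The 9 genes were SCD, FADS2, ELOVL1, MLXIPL, AGPAT2, AGPAT3, LPIN3, DGAT2 and MGLL. The windows of SCD are shown as those of the most abundant gene, that of FADS2 as the next in level of the 9, and that of MLXIPL as the only regulator with a match. They read 5′ to 3′ along the transcript with the match in capitals, at chr10:100363195-100363201 and chr10:100364404-100364410 (plus strand) for SCD, chr11:61867107-61867113 (plus) for FADS2 and chr7:73593282-73593288 (minus) for MLXIPL.
SCD match 1: cattccctacagcctAGGGCAGa
SCD match 2: actgacctacctcaaAGGGCAGt
FADS2: cttagattcaggggaAGGGCAGg
MLXIPL: cagagtgaccacagcAGGGCAGg

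Of these 4 matches, that of SCD listed as 1 was followed by an A, the base that extends a seed match. AGPAT2 and AGPAT3 had 2 matches each and MGLL had 3, which are shown because MGLL had the most. They lie on the minus strand at chr3:127692142-127692148, chr3:127691702-127691708 and chr3:127690211-127690217.
MGLL match 1: gatgcaggcaggggaAGGGCAGa
MGLL match 2: aggggccagctccccAGGGCAGa
MGLL match 3: gtcagccccggcagcAGGGCAGc

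The 9 genes with a match had a median log2 fold change of -0.058, 3 of them above 0, with a range from -0.19 for MLXIPL to 0.22 for AGPAT2. The 26 tested genes without a match had a median of 0.015, 14 of them above 0. Over all tested genes the medians were -0.022 with a match and 0.0067 without. DGAT1, PLIN5, ELOVL5 and LPIN2 had no match. The median 3′ UTR was 1534 bases in the 9 genes and 1125 bases in the 26. A match of letters is a description, and binding was not measured here.

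Promoters were searched for the letters of 2 motifs of factors known to act on lipogenic genes. Of the 38 genes, 32 had a promoter window in RefSeq (GRCh38.p14, a stretch around the transcription start). Both strands were searched, and no match of one motif overlapped that of another in these windows. The CCAAT box, bound by NF-Y, a partner of SREBF1, was found in 13 of 32, or 40.6%, against 34.6% of 35116 promoters. The E-box CACGTG, which USF factors bind, was found in 1 of 32 (ELOVL5), or 3.12%, against 7.26%. The window of ELOVL5 (chr6:53349146-53349171, minus strand) is shown as the single E-box match, and that of PLIN5 (chr19:4535278-4535302, minus strand) as the CCAAT box of the gene with the largest log2 fold change, read on the reverse strand.
ELOVL5, E-box: ttcccagagaCACGTGgaaccgaggg
PLIN5, CCAAT box on the reverse strand: gcctctccccATTGGtcagttccgg

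The 11 tested genes with a CCAAT box had a median log2 fold change of -0.058 and the 18 without one 0.0030. ELOVL5 with its E-box stood at -0.10, as given above. A missing match says only that these letters are not in the window.

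Further genes of the same pathways were read from a list. Of 57 listed, 51 were tested and 0 passed the adjusted threshold, with 23 above 0, 28 below and a median log2 fold change of -0.011. At an unadjusted p under 0.05 (edgeR), 0 were higher and 1 was lower, against 2.42% and 3.08% of all tested genes. For 1 gene all 3 circ_0098181 values lay above all 3 control values and for 1 all lay below, against 6.4% and 6.5% of all tested genes. The 1 at an unadjusted p under 0.05 was APOB, the protein of the lipoprotein particle that MTTP loads. It was at 6595, 8846 and 9234 CPM with the circle and at 12939, 10252 and 9127 CPM without it. Its groups overlapped, and its log2 fold change was -0.39 (95% interval -0.77 to -0.0089), with an unadjusted p of 0.0459 and an adjusted p of 0.797 (edgeR). APOB was lowest in circ_0098181 replicate 1 and highest in control replicate 1, the 2 libraries with opposite length trends, and the part of that trend was not tested. The 16 regulators and cofactors of lipogenic transcription had a median of -0.014 with 6 above 0, the 11 genes of citrate, acetyl-CoA and NADPH supply 0.024 with 6 above 0, and the 13 tested acyltransferases and droplet proteins 0.082 with 9 above 0. All 7 tested genes of further elongation and desaturation were below 0, with a median of -0.087.

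PPARA, the gene the study places at the end of the axis, was at 24.2, 7.42 and 11.4 CPM with the circle and at 6.37, 5.45 and 7.32 CPM without it. All 3 circ_0098181 libraries were above the controls, but replicate 2 only by a margin smaller than the SD of the controls (0.937 CPM). The log2 fold change of PPARA was 1.17 (95% interval 0.26 to 2.08), with an unadjusted p of 0.018 and an adjusted p of 0.797 (edgeR). PPARA therefore did not pass the adjusted threshold, and its exact permutation p was 0.1. The paper reports higher PPARA by RT-qPCR in Huh7 and Hep3B cells and in xenograft tumors, and by Western blot. Those measurements are apart from these libraries. The highest library of PPARA was circ_0098181 replicate 1. That library was also highest for 7 of the 35 genes, among them DGAT1, AGPAT2 and CIDEC. It was lowest for 9, among them ACLY, ACACA, FASN and LPIN2. Control replicate 3, at 7.32 CPM of PPARA, was highest for 7 and lowest for 11 of the 35. PLIN5 had 60, 62 and 43 counts in circ_0098181 replicates 1 to 3. Whether the level of any of these genes goes with that of PPARA was not tested.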

How the data were processed

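The table deposited by the authors held, for each gene in each library, the raw count of reads as a whole number. Beside it stood the deposited FPKM, which scales that count by length and library total. The submitters' processing notes name TopHat2 2.0.9 and hg38, while the counting tool, strand setting and annotation release are not given in the sources used here. Groups and replicate numbers came from the sample titles.

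Counts were fitted with edgeR 4.0.16 (R 4.3.3; filterByExpr with minimum count 10, TMM, glmQLFit and glmQLFTest, group as the only term, two-sided, Benjamini-Hochberg over 15055 genes, threshold 0.05). CPM used TMM library sizes. Standard errors and 95% intervals were derived from the F statistic. The biological coefficient of variation was 16.1%, and pairs of libraries within a group differed by a chi-square of 10.1 to 20.9 per degree of freedom, so none was a copy. Exact permutation tests used log2(CPM + 0.5) over 20 splits. Of the gene IDs, 98.5% were in GENCODE 29, 94.8% of them with the same coordinates. Lengths, GC content, exon overlaps and 3′ UTRs came from that release. Levels divide CPM by merged exon length.

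Genes, roles and lists were chosen with earlier results of these data known. Values in every library were given for FASN, ACACA, ACLY, SCD, SREBF1, DGAT1, DGAT2, PNPLA2, PNPLA3 and MTTP, for members with an unadjusted p under 0.05 and for members whose groups did not overlap. Other pathway genes were named only at an unadjusted p under 0.05, except PLIN2 and PLIN4, named beside the perilipins of the set. PPARA, SOX5 and the overlapping genes were named as context. Gene families compared by level, and the gene windows printed, were chosen after values were seen. The result of 1 further promoter motif is not reported here.

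Alternatives were RLE normalization, DESeq2 1.42.0, no filter beyond 1 count, limma 3.58.1 with trend on log2(FPKM + 1) for genes of at least 1 FPKM in 3 libraries, the replicate number as a block, and each library left out in turn. Same-numbered libraries did not deviate together (correlations -0.036, -0.023 and -0.031), so numbers were not read as pairs. Leaving out mitochondrial genes and a spline correction (5 degrees of freedom) for length and GC content were added after seeing the data. The main fit, RLE, no filter, replicate block, length and GC correction, DESeq2 and limma were run on simulated data, limma with the same length for every gene. The fits that left out a library or the mitochondrial genes were not. The outcome of the simulation is not given here.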

Additional observations from a re-analysis of the deposited data

How the results depend on the processing

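No member passed the adjusted threshold under any of the 13 alternatives run. Of 452 alternative values of single genes, 407 kept their direction and 45 changed sign, and the smallest adjusted p was 0.669. Over all genes, 4 were higher and 2 lower. DESeq2 gave 8 higher and 19 lower, while the replicate block and the length and GC correction gave 2 higher each. Leaving out 1 library gave 1 (without control replicate 3) to 7 (without circ_0098181 replicate 2) higher and 2 to 9 (without circ_0098181 replicate 2) lower, and the members' median moved between -0.025 and 0.013. The replicate block changed no call of a member. The causes of these shifts were not tested.

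Some signs changed with the tool, filter or correction. On limma's log2(FPKM + 1) scale, which covered 32 members, FADS1 stood at 0.0021, FADS2 at 0.020 and ELOVL6 at 0.026. The median over the genes of the main fit was itself 0.025 on that scale and 0.010 with no filter, against 0.0023 in the main fit. ELOVL6 was also above 0 with DESeq2 (0.0017), no filter (0.0077), the replicate block (0.0040) and without mitochondrial genes (6.87e-05). With the length and GC correction, chosen like the former after seeing the data, values were 0.020 for ACACA, 0.010 for FADS1, 0.00023 for FADS2, 0.081 for ELOVL6, -0.010 for SREBF1, 0.016 for GPAM and -0.033 for PLIN3.

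Leaving out 1 library turned the sign of 19 genes. Their ranges were -0.013 to 0.26 for ACACB, -0.069 to 0.012 for FASN, -0.053 to 0.099 for ME1, -0.065 to 0.036 for FADS1, -0.13 to 0.093 for FADS2, -0.081 to 0.067 for ELOVL6, -0.037 to 0.14 for ELOVL7, -0.0073 to 0.053 for SREBF1 and -0.39 to 0.012 for MLXIPL. They were -0.0045 to 0.10 for AGPAT1, -0.17 to 0.0073 for AGPAT3, -0.18 to 0.041 for LPIN3, -0.0053 to 0.099 for DGAT2, -0.059 to 0.21 for PNPLA3, -0.28 to 0.096 for ABHD5, -0.0040 to 0.067 for PLIN3, -0.013 to 0.28 for CIDEB, -0.064 to 0.38 for CIDEC and -0.0017 to 0.11 for MTTP. DGAT1 ran from 0.17 to 0.41, PLIN5 from 0.50 to 0.81, LPIN2 from -0.20 to -0.12 and ELOVL5 from -0.12 to -0.070. Depth limits PLIN5 and TM6SF2 most, at 256 and 277 counts over the 6 libraries.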
